A study of Mus musculus with 6 samples.

Results

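The genes described here are 10 genes of hepatic bile acid synthesis, conjugation and feedback control, taken by symbol from a table of read counts for 49315 mouse genes. They are Cyp7a1, Cyp7b1, Cyp8b1, Cyp27a1, Akr1d1, Hsd3b7, Baat, Nr1h4, Nr0b2 and Fgfr4. All 10 symbols were found, each on 1 row. Their expression was compared between 3 control and 3 miR-206 libraries of sorted hepatocytes. The mice were C57BL/6J males, 8 weeks old at injection, and the cells were taken 4 weeks later. By the study's design text, 3 mice were injected hydrodynamically with 20 µg of pT3-TTR-miR-206-IRES-GFP and 0.8 µg of pCMV/Sleeping Beauty, a transposase plasmid that inserts the first plasmid into hepatocyte chromosomes. The TTR promoter, active in hepatocytes, drives both miR-206 and GFP. Sorted GFP-negative hepatocytes (control, genotype given as Wild-type) and GFP-positive hepatocytes (miR-206, genotype given as miR-206 overexpression) were then used for RNA. The sample labels give the controls' treatment as Empty vector, which the design text does not mention, so whether the control cells come from the same livers is not settled by the labels. Neither source ties a library to a mouse. Transposon uptake, GFP, the sort gate and miR-206 differ together between the groups and cannot be told apart, and p-values measure the spread between these libraries.

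Bile acids are made from cholesterol in hepatocytes. In the classic route Cyp7a1 carries out the first and rate-limiting hydroxylation, Hsd3b7 and Akr1d1 modify the steroid ring, Cyp8b1 directs the product towards cholic acid, and Cyp27a1 oxidises the side chain. In the alternative route Cyp27a1 acts first and Cyp7b1 hydroxylates the resulting oxysterol. Baat joins the finished acid to taurine, the main conjugate in mice. Bile acids activate FXR, the receptor encoded by Nr1h4. FXR induces Nr0b2, which encodes the corepressor SHP, in the liver, and FGF15 in the intestine. FGF15 signals through Fgfr4 on hepatocytes, and both arms lower Cyp7a1 and Cyp8b1 transcription.

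The overexpressed microRNA and the target match found among these genes are shown because a microRNA pairs with messenger RNA through its seed. The mature miR-206 is the RefSeq sequence (GRCm38.p6, chr1:20679055-20679076, plus strand) with seed bases 2 to 8 in capitals. The site is from the GENCODE M21 transcript of Cyp7a1 (GRCm38, chr4:6266515-6266544, minus strand, in the 3′ UTR), written as DNA with the match to the seed in capitals.
mmu-miR-206-3p: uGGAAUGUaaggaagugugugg
Cyp7a1 3′ UTR site: cccatagcatcccaggctggaACATTCCgc

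The longest annotated 3′ UTR of each of the 10 genes was searched on the transcribed strand for ACATTCC, the match to seed bases 2 to 8, with or without the A that makes it ACATTCCA, and for CATTCCA, which overlaps both. Cyp7a1 had 1 match, ACATTCC at position 1689 of its 2600-base 3′ UTR, and the other 9 genes had none. Of 16822 tested genes with a 3′ UTR, 11.0% held ACATTCC and 18.4% held at least 1 of the 3 forms. The 3′ UTR of Cyp7a1 was also the longest of the 10, the others running from 233 bases (Cyp27a1) to 1649 bases (Akr1d1). A match is a description of the sequence and does not show that miR-206 binds there.

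The gene of the precursor, Mir206, had 0 counts in all 6 libraries, so these counts do not check the overexpression that the labels give. Total counts ran from 8966590 to 15244017 in the control libraries and from 4157947 to 5724329 in the miR-206 libraries. Mitochondrial genes took 9.16% to 36.0% of control counts and 11.2% to 63.8% of miR-206 counts (95% Wilson intervals within 0.042 percentage points, covering counting error only). Olfactory and vomeronasal receptor genes, which hepatocytes are not known to express, give a measure of counts that do not come from expressed genes. Across 1702 such genes they reached 1.26 to 3.05 counts per exonic kb in controls and 3.70 to 5.45 in miR-206 libraries, and the background scaled to all exons came to 1.24% to 6.58% and 18.3% to 25.7% of nuclear counts. Control 1 stood apart from the other controls, with a log2 CPM correlation across genes of 0.854 and 0.856 with controls 2 and 3, against 0.965 between those. Of 25 hepatocyte identity genes 23 were above the background in the miR-206 libraries, and the transcription factor genes Foxa2 (0.20 times the background) and Cebpa (0.86 times) were not. The summed level of the 25 was 93644 to 237382 CPM (library-scaled counts, as described next) in controls and 25880 to 71606 in miR-206 libraries, and 17 were lower in every miR-206 library. Markers of other liver cells were mostly lower as well, with exceptions among stellate, cholangiocyte, lymphocyte and red cell markers. The cholangiocyte marker Cftr had a higher mean in miR-206 libraries (9.39 CPM, against 4.40 CPM in controls), with overlap between the groups. Kupffer cell markers summed to 624 to 1968 CPM in controls and 70.7 to 83.1 in miR-206 libraries (10 of 12 genes lower in every miR-206 library), sinusoidal endothelial markers to 520 to 598 and 132 to 143 (10 of 10), stellate cell markers to 244 to 664 and 121 to 140 (4 of 10), cholangiocyte markers to 883 to 3135 and 55.7 to 116 (6 of 8), lymphocyte markers to 395 to 422 and 46.2 to 51.6 (5 of 10), and red cell markers to 38.1 to 159 and 16.8 to 45.0 (1 of 5). The red cell sums overlapped. Beside the 30.3% of all genes tested, the red cell count (1 of 5) was lower. The stellate (4 of 10) and lymphocyte (5 of 10) counts were not far above that share. Most of the lymphocyte sum in controls was the immunoglobulin gene Igkc, at a mean of 321 CPM there and 1.17 CPM in miR-206 libraries, so that sum does not describe the whole list. On the deposited counts 2 of the 10 lymphocyte markers rose, where 25.8% of all genes tested did. They were Ms4a1 and Cd3e, the latter at 5.28 to 5.89 CPM in controls and 11.1 to 16.5 CPM in miR-206 libraries. No marker gene was at 0 in all miR-206 libraries. The part of these differences in the results below was not tested.

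For that reason each gene was read in more than one way. The first is CPM, deposited counts set to a common library total and scaled by TMM (trimmed mean of M values, which sets most genes to no change), with edgeR's quasi-likelihood test across 24382 genes and a Benjamini-Hochberg adjusted p under 0.05 as the threshold. The second uses the same test after the receptor-gene background was subtracted, over the 6458 protein-coding genes with counts of, on average, 10 or more times that background. That minimum is an average over all libraries, so a gene can enter through the controls alone, where it is high, and a fall is then favoured by the filter. In the miR-206 libraries only Cyp7a1, Cyp8b1 and Cyp27a1 of the 10 genes were above 10 times the background, and the subtracted values of the others are given as descriptions. A further scaling sets the geometric mean of the 25 hepatocyte identity genes, Foxa2 and Cebpa included, to be equal between libraries. Single genes of the list can still differ: on the deposited counts so scaled, 10 of the 25 rose and 7 fell (median 0.43). With that scaling 63.8% of all genes rose and 2.18% fell. The last reading is the ratio of 2 genes within a library, which no scaling can alter. The median log2 fold change of all genes was 0.45 on the deposited counts, 2.75 with hepatocyte scaling and -0.23 after background subtraction, so a gene's direction is relative to these. After subtraction 8 of the 25 hepatocyte identity genes rose and 7 fell, with a median of 0.62, where 18.5% of all genes rose and 20.3% fell.

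On the deposited counts 8 of the 9 genes tested were lower in miR-206 cells and none was higher, where 29.6% of all genes tested fell and 25.8% rose. After background subtraction the same 9 genes passed the minimum and 4 were past the threshold, with Cyp7a1 and Cyp8b1 higher and Cyp27a1 and Nr1h4 lower. Of these, Nr1h4 had entered through the controls alone. In that reading 18.5% of all genes rose and 20.3% fell. With hepatocyte scaling of the deposited counts 3 rose (Cyp7a1, Cyp8b1 and Fgfr4) and Cyp27a1 fell, where 63.8% of all genes rose and 2.18% fell. With both hepatocyte scaling and subtraction Cyp7a1 and Cyp8b1 rose and none fell, where 15.9% of all genes rose and 11.5% fell. The median log2 fold change of the 9 genes was -2.83, -0.26, -0.17 and -0.10 in these readings. The distance between the genes was nearly the same before and after background subtraction: their log2 fold changes ran from -3.83 to -1.10 on the deposited counts and from -1.13 to 1.65 after it. In bulk RNA, fewer cells of a type and less RNA per cell cannot be told apart.

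**Figure D1:**
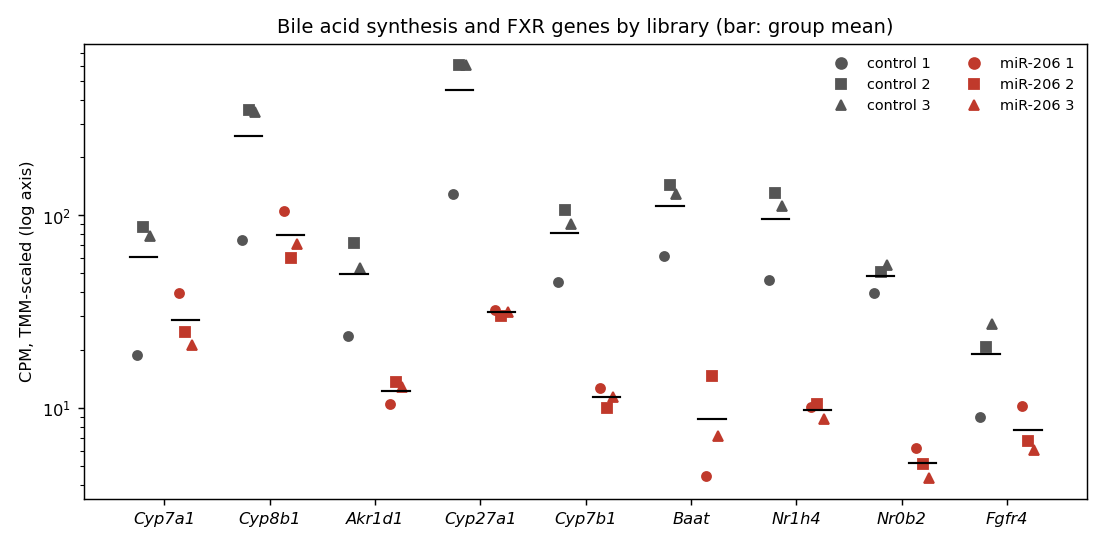
Expression of 9 of the 10 genes in each library, in TMM-scaled CPM on a log axis; points are the 3 control and 3 miR-206 libraries and bars are group means. The groups do not overlap for Cyp7b1, Cyp27a1, Akr1d1, Baat, Nr1h4 and Nr0b2, and overlap for Cyp7a1, Cyp8b1 and Fgfr4, where control 1 lies among or below the miR-206 libraries; Hsd3b7, at 0 in miR-206 libraries, is not drawn.

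Cyp7a1 (ENSMUSG00000028240, chr4:6265612-6275633, minus strand, GRCm38) is the rate-limiting enzyme of the classic route and the only one of the 10 with a seed match. It was at 18.9, 86.8 and 77.8 CPM in control libraries 1 to 3 and at 39.6, 24.9 and 21.2 CPM in miR-206 libraries 1 to 3. Control 1 was the lowest of all 6, so the groups overlapped. The log2 fold change was -1.10 (SE 0.54, edgeR adjusted p = 0.102), which did not pass, although it passed without control 1 (-1.60), by DESeq2 (-1.25) and with no filter on low counts (-1.40). After background subtraction Cyp7a1 was 1.65 log2 units higher (SE 0.38, edgeR adjusted p = 0.0127), and with hepatocyte scaling of the deposited counts 1.72 higher (edgeR adjusted p = 0.0048). The higher level after subtraction passed in all 6 fits that left out 1 library (1.27 to 2.07), and it missed the threshold when library totals alone set the scale (1.09, edgeR adjusted p = 0.066). Its counts averaged 69.5 times the background in controls and 10.1 times in miR-206 libraries.

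Cyp8b1 (ENSMUSG00000050445, chr9:121914356-121916305, minus strand, a single exon) sets the share of cholic acid in the bile acid pool. It was at 74.9, 352.0 and 345.7 CPM in controls and 105.2, 60.2 and 71.2 CPM in miR-206 libraries. The pattern resembled that of Cyp7a1: control 1 was low and the groups overlapped. It fell by 1.71 log2 units on the deposited counts (SE 0.60, edgeR adjusted p = 0.0339), a call lost without control 2, control 3, miR-206 2 or miR-206 3 in turn. After background subtraction it was 1.15 higher (SE 0.38, edgeR adjusted p = 0.0437), a call lost when any 1 of the 6 libraries was left out (0.81 to 1.53) or with the replicate number as a block (1.19, edgeR adjusted p = 0.0562). At 60.3 times the background in miR-206 libraries it had the most counts over background of the 10 genes there.

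Akr1d1 (ENSMUSG00000038641, chr6:37530173-37568815, plus strand) reduces the double bond of the steroid ring. It was at 23.6, 72.1 and 53.1 CPM in controls and 10.5, 13.6 and 12.8 CPM in miR-206 libraries. Every miR-206 library lay below every control. It fell by 2.01 log2 units (SE 0.43, edgeR adjusted p = 0.0035), and after background subtraction its difference of 0.56 had the opposite sign and did not pass (SE 0.28, edgeR adjusted p = 0.142). It was past the threshold with a higher value at a minimum of 20 times the background (0.91, edgeR adjusted p = 0.0332). The same held with the minimum set on the ratio of mean counts (0.85, edgeR adjusted p = 0.0421). Akr1d1 had entered through the controls alone, at 80.8 times the background there and 6.09 times in miR-206 libraries. Its subtracted values are therefore descriptions and support no rise.

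Hsd3b7 (ENSMUSG00000042289, chr7:127800604-127803802, plus strand), which acts on the product of Cyp7a1 or Cyp7b1, had 11, 22 and 16 counts in controls and 0 in each miR-206 library. By counting error alone, a count of 0 allows up to 0.379, 0.546 and 0.393 CPM in miR-206 libraries 1 to 3 (3 counts per library). The controls were at 1.45 to 2.28 CPM. That ceiling does not allow for reads that were not assigned to the gene. It did not pass the filter on low counts of the test. The receptor background for its length came to 15.1, 10.2 and 14.9 counts in the miR-206 libraries, so its 0 counts were also below that background. The annotation places 9430064I24Rik on the opposite strand over 62.4% of its exonic bases and Gm49388 on the same strand over 62.0%, so reads of these genes may not have been assigned to Hsd3b7 and no fold is given.

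Cyp27a1 (ENSMUSG00000026170, chr1:74713574-74737892, plus strand) encodes the mitochondrial enzyme that opens the alternative route, and macrophages express it too. It was at 129.1, 606.8 and 604.7 CPM in controls and at 32.4, 30.2 and 31.7 CPM in miR-206 libraries. The miR-206 libraries were nearly equal and all lay below control 1. It fell by 3.83 log2 units on the deposited counts (SE 0.65, edgeR adjusted p = 0.0011), the largest fall of the 9. After background subtraction it fell by 1.01 (SE 0.35, edgeR adjusted p = 0.0498), a call that held only without control 1 among the 6 fits that left out a library. It was also lost at 20 times the background (-0.64), with the minimum on the ratio of mean counts (-0.71) and with the replicate block (-0.92). Kupffer cell markers fell beside it in all 12 genes on the deposited counts, where 29.6% of all genes tested fell. After subtraction, where 20.3% of all genes fell, 9 of 12 were past the threshold with lower values. Of these only Lyz2 was above 10 times the background in miR-206 libraries (26.1 times). The others had entered through the controls alone, and their subtracted values are descriptions. The part of Kupffer cells in the difference was not tested.

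Cyp7b1 (ENSMUSG00000039519, chr3:18071950-18243338, minus strand), the oxysterol hydroxylase of the alternative route, was at 45.3, 106.8 and 89.8 CPM in controls and at 12.6, 10.004 and 11.4 CPM in miR-206 libraries. The groups did not overlap. It fell by 2.83 log2 units (SE 0.42, edgeR adjusted p = 0.0006). After background subtraction the difference was -0.26 (SE 0.23, edgeR adjusted p = 0.367) and did not pass.

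Baat (ENSMUSG00000039653, chr4:49489422-49506557, minus strand), the conjugating enzyme, was at 61.6, 144.6 and 129.1 CPM in controls and at 4.43, 14.7 and 7.20 CPM in miR-206 libraries. Within the miR-206 group miR-206 2 was highest, and the groups did not overlap. It fell by 3.68 log2 units (SE 0.56, edgeR adjusted p = 0.0006). After background subtraction the difference was -1.13 (SE 0.48, edgeR adjusted p = 0.0941), and it passed without miR-206 2 (-1.98) and with the replicate block (-1.35, edgeR adjusted p = 0.0455). Baat too had entered through the controls alone (269 times the background there and 6.06 times in miR-206 libraries).

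Nr1h4 (ENSMUSG00000047638, chr10:89454234-89533585, minus strand), the gene of FXR, was at 46.0, 130.5 and 112.0 CPM in controls and at 10.1, 10.5 and 8.77 CPM in miR-206 libraries. The miR-206 libraries were close together and below all controls. It fell by 3.29 log2 units on the deposited counts (SE 0.47, edgeR adjusted p = 0.0005). After background subtraction its difference was -0.75 (SE 0.24, edgeR adjusted p = 0.0405). It had entered that reading through the controls alone, at 196 times the background there and 6.13 times in miR-206 libraries, so this value supports no fall. It was past the threshold in 2 of the 6 fits that left out a library, those without control 1 and without miR-206 2, and in neither that with a minimum of 20 times the background (-0.39) nor that with the replicate block (-0.74).

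Nr0b2 (ENSMUSG00000037583, chr4:133553376-133556536, plus strand), the gene of SHP and a target of FXR, was at 39.8, 51.0 and 55.2 CPM in controls and at 6.20, 5.09 and 4.32 CPM in miR-206 libraries. In this gene control 1 lay close to the other controls, and the groups did not overlap. It fell by 3.22 log2 units (SE 0.34, edgeR adjusted p = 0.0003), and after background subtraction the difference was -0.80 (SE 0.33, edgeR adjusted p = 0.0841), which did not pass.

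Fgfr4 (ENSMUSG00000005320, chr13:55152640-55168759, plus strand), the hepatic receptor for FGF15, was at 8.98, 20.9 and 27.3 CPM in controls and at 10.2, 6.73 and 6.02 CPM in miR-206 libraries. The groups overlapped through control 1 and miR-206 1. It fell by 1.31 log2 units (SE 0.43, edgeR adjusted p = 0.0251), a call lost without control 2, control 3, miR-206 2 or miR-206 3 in turn. After background subtraction the difference was 1.01 (SE 0.43, edgeR adjusted p = 0.0931). Its miR-206 counts averaged only 3.19 times the background, the lowest of the 9 genes tested. Klb, which encodes the co-receptor of Fgfr4, was at 9.73 ± 1.63 CPM among controls and 11.1 ± 4.32 CPM among miR-206 libraries (SD, n = 3 each; log2 fold change 0.20, edgeR adjusted p = 0.654) and was only 3.71 times the background in the latter.

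On the deposited counts 6 of the 9 genes tested had all 3 miR-206 libraries below all 3 controls, where 30.3% of all genes tested were. They were Cyp7b1, Cyp27a1, Akr1d1, Baat, Nr1h4 and Nr0b2.

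**Figure D2:**
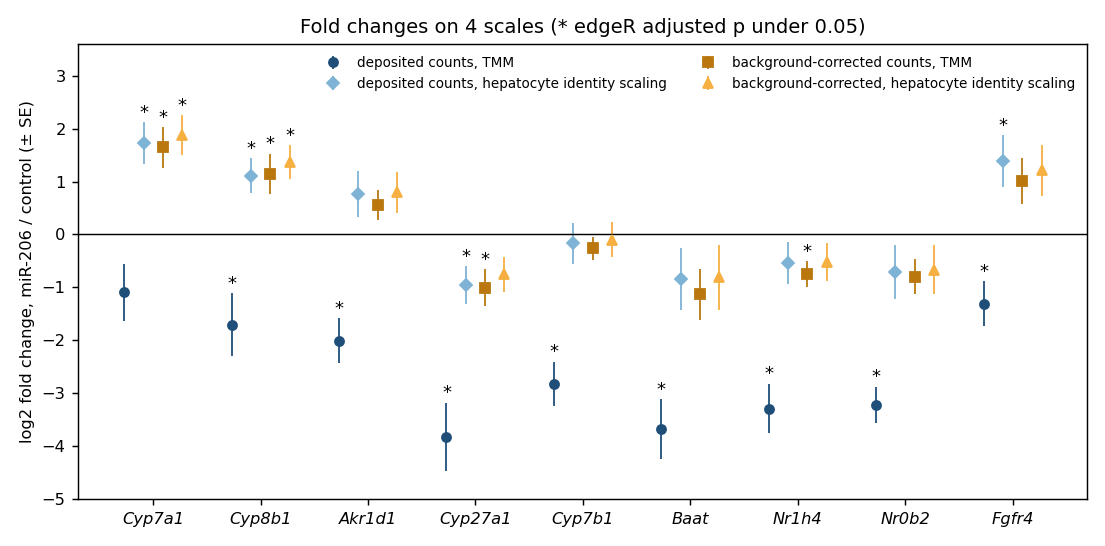
Log2 fold change, miR-206 against control, of 9 genes under 4 readings (deposited counts with TMM, deposited counts with hepatocyte scaling, background-subtracted counts, and background-subtracted counts with hepatocyte scaling); points are edgeR estimates and bars are 1 SE. All 9 lie below 0 with TMM on the deposited counts (-3.83 to -1.10), whereas Cyp7a1, Cyp8b1, Akr1d1 and Fgfr4 lie above 0 in the other readings; Hsd3b7, not tested, is not drawn.

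Ratios of genes within a library show how the members differed from each other whatever the scale. Per exonic kb, the ratio of Cyp7a1 to Cyp27a1, the first enzymes of the classic and alternative routes, was 0.0764, 0.0745 and 0.0670 in controls and 0.636, 0.430 and 0.349 in miR-206 libraries. It was 6.30-fold higher in miR-206 libraries (2.66 log2 units). The ratio of Cyp7a1 to Cyp7b1 was 0.217, 0.422 and 0.450 in controls and 1.62, 1.29 and 0.964 in miR-206 libraries, 3.65-fold higher (1.87 log2 units). In both ratios the miR-206 libraries all lay above the controls, control 1 included. The ratio of Cyp8b1 to Cyp7a1 was 8.47, 8.68 and 9.50 in controls and 5.68, 5.16 and 7.17 in miR-206 libraries, so it was lower by 0.58 log2 units without overlap. For each of these 3 ratios the exact two-sided permutation test gave p = 0.1, the smallest that 3 against 3 libraries allow (0.2 after Benjamini-Hochberg adjustment over 6 ratios). The ratio of SHP to FXR transcripts, Nr0b2 to Nr1h4, was 1.76, 0.795 and 1.00 in controls and 1.25, 0.991 and 1.01 in miR-206 libraries. These overlapped, with a difference of -0.05 log2 units (exact permutation p = 0.9), as did Akr1d1 to Cyp8b1 (-0.42, exact permutation p = 0.5) and Baat to Slc27a5, the bile acid-CoA ligase that precedes it (-0.52, exact permutation p = 0.7). A p of that size does not show that the ratios were equal.

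**Figure D3:**
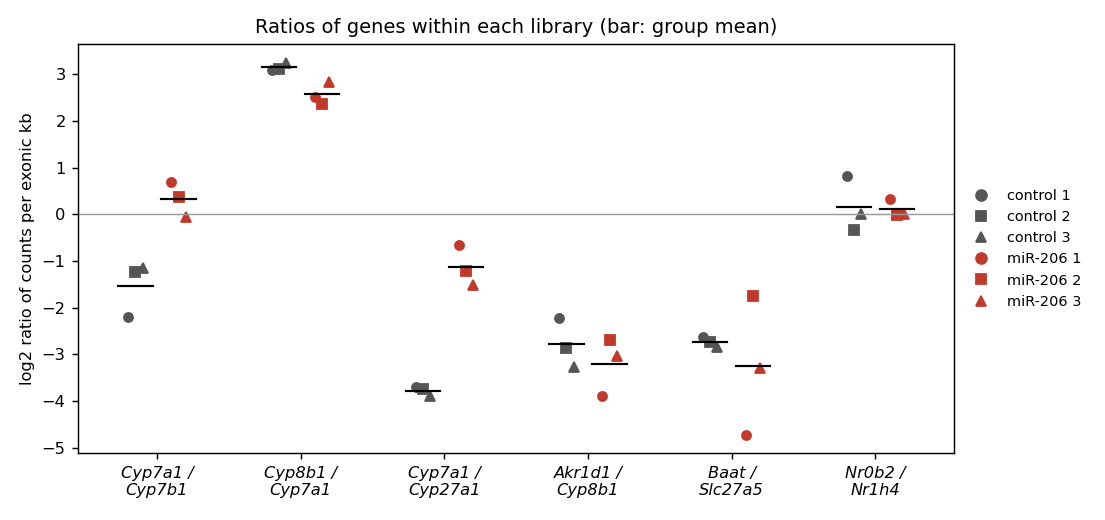
Log2 ratio of counts per exonic kb for 6 pairs of genes within each library; points are libraries and bars are group means. Cyp7a1 to Cyp27a1 and Cyp7a1 to Cyp7b1 are higher in all 3 miR-206 libraries than in all 3 controls, Cyp8b1 to Cyp7a1 is lower, and the other 3 pairs overlap.

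As a share of the 10 genes' summed level per exonic kb, Cyp27a1 took 34.7% ± 6.85 in controls and 16.9% ± 2.11 in miR-206 libraries, Cyp8b1 22.3% ± 4.30 and 46.0% ± 6.61, and Cyp7a1 2.50% ± 0.404 and 7.75% ± 1.40 (SD, n = 3 each). None of these 3 shares overlapped between groups (exact permutation p = 0.1 for each). Nr1h4 went from 7.86% to 4.97%, Nr0b2 from 9.62% to 5.29% and Fgfr4 from 1.01% to 2.46%, also without overlap, as did Hsd3b7, from 0.147% to 0%. Shares sum to a whole, so a higher share of one gene lowers the others.

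In controls the mean level per exonic kb fell in the order Cyp27a1 (205.6 CPM per kb), Cyp8b1 (132.1), Baat (57.6), Nr0b2 (43.0), Nr1h4 (41.8), Cyp7b1 (37.2), Akr1d1 (17.2), Cyp7a1 (14.7), Fgfr4 (5.38) and Hsd3b7 (0.668). Neighbours in this order overlapped in range except Fgfr4 and Hsd3b7. In miR-206 libraries the order was Cyp8b1 (40.5 CPM per kb), Cyp27a1 (14.5), Cyp7a1 (6.85), Cyp7b1 (5.24), Nr0b2 (4.60), Baat (4.53), Nr1h4 (4.26), Akr1d1 (4.26), Fgfr4 (2.16) and Hsd3b7 (0). There the ranges of Cyp8b1 and Cyp27a1, of Cyp27a1 and Cyp7a1, of Akr1d1 and Fgfr4, and of Fgfr4 and Hsd3b7 did not overlap, and neighbours among the 6 genes from Cyp7a1 to Akr1d1 overlapped.

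Of 12 other enzymes of bile acid synthesis 11 were tested. On the deposited counts 10 fell and none rose, where 29.6% of all genes tested fell and 25.8% rose. Their median log2 fold change was -2.92, against 0.45 for all genes. After background subtraction 10 were tested, with a median of -0.62 against -0.23 for all genes. Hsd17b4, a peroxisomal enzyme of side chain shortening, fell in both readings (-3.71, then -0.98 with edgeR adjusted p = 0.048) and was 10.2 times the background in miR-206 libraries. Cyp39a1, an oxysterol hydroxylase, fell on the deposited counts (-3.49, edgeR adjusted p = 0.0005). Its value after subtraction (-1.30, edgeR adjusted p = 0.0247) is a description, since it entered through the controls alone (100.4 times the background there and 2.82 times in miR-206 libraries). Acot8, a peroxisomal thioesterase, fell on the deposited counts (-2.92) and did not pass after subtraction (-0.75, edgeR adjusted p = 0.211). Cyp2c70, which makes muricholic acids in mice, fell by 1.90 on the deposited counts and rose by 0.84 after subtraction (edgeR adjusted p = 0.0412). This gene was singled out after its values were seen.

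The 4 genes of taurine supply all fell on the deposited counts (median -3.02), where 29.6% of all genes tested fell. Among them were Fmo1 (-3.21), which makes taurine from hypotaurine, the taurine transporter Slc6a6 (-2.09) and Cdo1 (-3.29), which oxidises cysteine. After subtraction the list median was -0.29, and Fmo1 was the one gene past the threshold (-0.85, edgeR adjusted p = 0.0213). It had entered through the controls alone, at 110.5 times the background there and 3.68 times in miR-206 libraries, so that value is a description.

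Of 14 other regulators of bile acid synthesis, all tested on the deposited counts, 11 fell and 1 rose (median -2.78). Of all genes tested 29.6% fell and 25.8% rose. The regulator that rose, the bile acid receptor Gpbar1, was at 0.299 CPM in the controls and 2.10 CPM in miR-206 libraries. It was 2.75 times the background in the latter and was not tested after subtraction. After subtraction 11 entered, all through the controls alone, at 1.97 to 4.46 times the background in miR-206 libraries. Their median of -0.88 is therefore a description, since the filter favours a fall. Of the 11, 3 were past the threshold with lower values and 1 with a higher value. The lower ones were at 2.27 to 4.26 times the background in miR-206 libraries, and their subtracted values are descriptions. They were Hnf4a, a hepatocyte transcription factor that activates Cyp7a1 and Cyp8b1 (-4.30 on the deposited counts, then -1.78 with edgeR adjusted p = 0.0137), Mafg, a repressor induced by FXR (-3.10, then -1.03), and Gps2, a corepressor subunit (-3.33, then -1.53). Hnf4a is also in the hepatocyte identity list. Ppargc1a, a coactivator, was the one with a higher value after subtraction (1.18, edgeR adjusted p = 0.0451), having fallen on the deposited counts (-0.90). It too had entered through the controls alone, at 16.1 times the background there and 2.79 times in miR-206 libraries. Its subtracted value is likewise a description. Nr1i2, the pregnane X receptor, fell on the deposited counts (-2.90) and did not pass after subtraction (-0.64, edgeR adjusted p = 0.174).

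Of 11 bile acid transporters 9 were tested on the deposited counts, 6 fell and none rose (median -2.32). Across all genes tested 29.6% fell and 25.8% rose. The canalicular exporters Abcb11 (-3.13) and Abcc2 (-2.50) and the basolateral exporter Abcc3 (-2.57) fell, and after subtraction their differences of -0.48, 0.03 and -0.23 did not pass. After subtraction 8 transporters were tested (median 0.16), where 20.3% of all genes fell and 18.5% rose. None was past the threshold with a lower value and 3 were with a higher value. These 3, named after their values were seen, were the uptake carriers Slc10a1, Slco1b2 and Slco1a4. Slco1a1, another uptake carrier, did not pass (0.12, edgeR adjusted p = 0.804). Slc10a1, the sodium-dependent carrier, was at 412 ± 160 CPM in the controls and 152 ± 78.6 CPM in miR-206 libraries, and it fell by 1.44 on the deposited counts but rose by 1.29 after subtraction (edgeR adjusted p = 0.0343). Slco1b2 rose by 1.52 after subtraction, having not passed on the deposited counts (-1.21). Slco1a4 had a value of 1.39 after subtraction and did not pass on the deposited counts (-0.73). It had entered through the controls alone, at 18.2 times the background there and 3.6 times in miR-206 libraries. Its subtracted value is therefore a description and supports no rise.

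Of 10 hepatic genes known to be induced by FXR 7 were tested. On the deposited counts 6 fell and none rose (median -2.50), where 29.6% of all genes tested fell and 25.8% rose. The smallest p-values were those of Nr0b2, Mafg and Abcb11, given above. After subtraction the same number could be tested, Mafg was lower as given above, and Pltp, a lipid transfer protein, rose by 2.84 (edgeR adjusted p = 0.0073; list median 0.03). Pltp had 849, 110 and 427 counts in miR-206 libraries 1 to 3 and did not pass on the deposited counts (0.22), so it varied widely within the group.

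**Figure D4:**
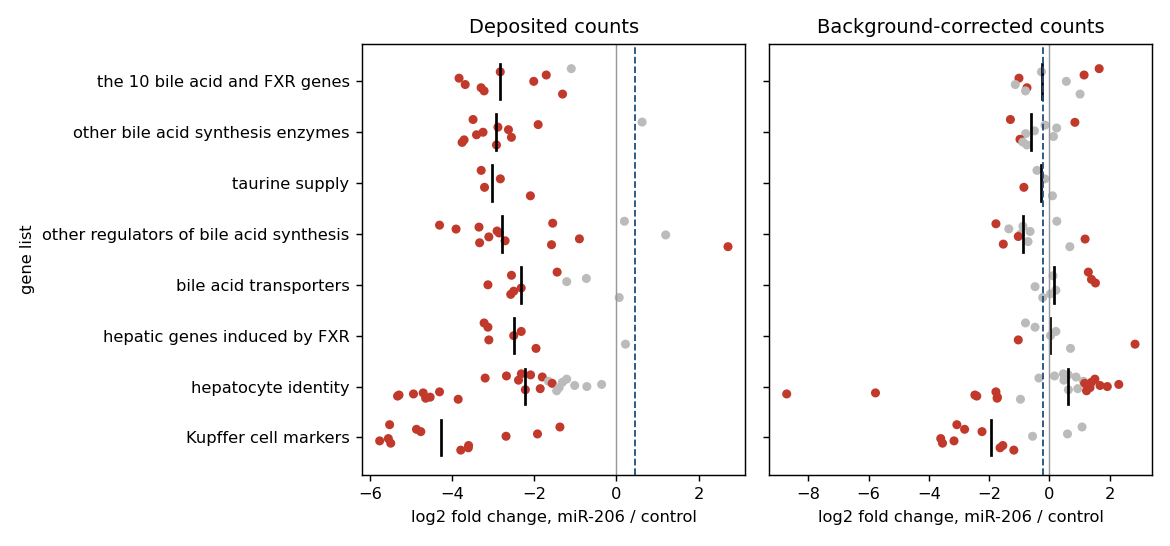
Log2 fold change, miR-206 against control, of each gene in the bile acid lists and, for comparison, the hepatocyte identity and Kupffer cell lists, on the deposited counts and after background subtraction; red points passed an edgeR adjusted p of 0.05, grey points did not, black bars are list medians and the dashed line is the median of all genes tested. Medians of the bile acid lists lie between -3.02 and -2.32 on the deposited counts, far below the all-gene median of 0.45, and between -0.88 and 0.16 after subtraction, around the all-gene median of -0.23. The subtracted medians include genes that entered through the controls alone, among them all 11 other regulators (median -0.88), and are descriptions.

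Among 12319 other genes with a mean of at least 5 CPM, the 5 whose log2 CPM was most like that of Cyp7a1 over the 6 libraries were Minpp1 (Pearson r = 0.996), Mccc1 (0.994), Gars (0.993), Smc4 (0.990) and 2300009A05Rik (0.989). These are descriptions over 6 libraries that share their scale factors and the low value of control 1. Among the other 8 of the 9 genes tested, Cyp8b1 (r = 0.96) and Fgfr4 (r = 0.92) were most like Cyp7a1 and Baat was least like it (0.58).

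The 250 bases upstream of the annotated start were available in the RefSeq table (GRCm38.p6) for 7 of the 10 genes. They are shown for Nr0b2 and Cyp8b1, a target of FXR and a target of the feedback, which hold cores of motifs for regulators listed above. Capitals mark TCAAGG, the core bound by LRH-1 (the product of Nr5a2), in the Nr0b2 sequence (chr4:133553126-133553375, plus strand) and CAAAGTCCA, a core bound by HNF4A, in the Cyp8b1 sequence (chr9:121916306-121916555, minus strand).
Nr0b2 upstream: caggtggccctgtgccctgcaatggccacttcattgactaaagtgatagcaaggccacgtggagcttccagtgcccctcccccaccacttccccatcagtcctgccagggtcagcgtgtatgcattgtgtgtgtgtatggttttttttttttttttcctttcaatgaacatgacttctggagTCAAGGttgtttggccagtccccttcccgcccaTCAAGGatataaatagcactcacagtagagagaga
Cyp8b1 upstream: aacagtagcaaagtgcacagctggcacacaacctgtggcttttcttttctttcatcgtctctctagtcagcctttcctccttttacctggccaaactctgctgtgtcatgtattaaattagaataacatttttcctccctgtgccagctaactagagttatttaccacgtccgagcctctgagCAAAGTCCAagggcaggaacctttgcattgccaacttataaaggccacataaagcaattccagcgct

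TCAAGG stood at -68 and -35 from the Nr0b2 start and, on the other strand, at -213 from that of Akr1d1. CAAAGTCCA stood at -67 from the Cyp8b1 start. Both strands were searched. Of 32851 windows of the same length 12.5% held TCAAGG and 0.384% held CAAAGTCCA. A pair of AGGTCA in inverted repeat with 1 base between them, a form of the FXR element, was in none of the 7 windows and in 0.00609% of all windows, which says only that these letters are not there. Nr5a2 was at 23.7 ± 6.53 CPM in the controls and 8.10 ± 1.93 CPM in miR-206 libraries (SD, n = 3 each). Its log2 fold change was -1.55 on the deposited counts (edgeR adjusted p = 0.0042) and 0.24 after subtraction (edgeR adjusted p = 0.699).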

How the data were processed

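The deposited table holds raw counts per gene for the 6 libraries, which the authors made from libraries of the SMARTER mRNA-Seq kit per the labels' protocols. The submitters' processing notes name GRCm38 (mm10), and the sources used here do not give the aligner, the counter or the use of strand. The genes and lists were chosen with earlier results of these data known. All 49315 genes entered the counts with edgeR 4.0.16 in R 4.3.3 (filterByExpr, minimum count 10, TMM, robust quasi-likelihood fit, Benjamini-Hochberg over all genes tested), which was tested on simulated data. The SE is the log2 fold change divided by the square root of F. Exonic lengths came from GENCODE M21, which held 49056 of the gene IDs. The background per exonic kb of 1702 receptor genes was subtracted from each gene by its exonic length, and the results were rounded. Protein-coding nuclear genes whose counts averaged at least 10 times it were kept. Ratios had 0.5 counts added to both genes. The named genes are the 10 genes, the 3 with the smallest p in each list and the 5 most like Cyp7a1, and others are stated to be chosen later where named (Klb, Gpbar1, Ppargc1a, Slc27a5 and Nr5a2 also were). Replicate numbers were not used to pair the libraries in the main fit, and whether they stand for the same mice is not settled. Alternatives were other scale factors (RLE, upper quartile, library size alone, hepatocyte scaling), no filter, DESeq2 1.42.0, a replicate block, mitochondrial genes left out, other background minimums (5 and 20 times) and leaving out each library in turn.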

Additional observations from a re-analysis of the deposited data

How the results depend on the processing

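The count of genes past the test was 13502 on the deposited counts, 2505 on the background-subtracted ones and 8472 (without miR-206 3; 8796 without miR-206 1) to 19532 (without control 1) when 1 library was left out. Genes rose and fell in numbers of 6289 and 7213 with TMM, 5614 and 7500 with RLE, 10629 and 4812 with upper-quartile factors, 11642 and 3774 with library size alone, 15544 and 532 with hepatocyte scaling, 5975 and 7642 by DESeq2. The median of all genes was 0.45, 0.35, 1.25, 1.47 and 2.75 under the first 5 of these. Of the 10 bile acid genes, 8 fell on the deposited counts, 5 with library size alone, 1 with hepatocyte scaling, 2 after background subtraction and 6 to 9 with 1 library left out. None rose on the deposited counts or in any of these left-out fits (0), 3 rose with hepatocyte scaling and 2 after subtraction. After subtraction 2 fell, against 0 with hepatocyte scaling, 5 at 5 times the background, 0 at 20 times, 0 with the minimum set on the ratio of mean counts (chosen after seeing the data) and 0 to 2 with 1 library left out. After subtraction 2 rose, against 1 with RLE, 1 with upper-quartile factors, 0 with library size alone, 1 at 5 times the background, 3 at 20 times, 3 with the minimum on the ratio of mean counts and 1 in each fit with 1 library left out. The 3 at 20 times and the 3 with the minimum on the ratio of mean counts include Akr1d1, whose subtracted values are descriptions. The cause of these moves was not tested.

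Signs on the deposited counts turned under library size alone for Cyp7a1 (0.15), Slco1b2 (0.029), Slco1a4 (0.35) and Ppargc1a (0.21), and under upper-quartile factors for Slco1a4 (0.079). Under hepatocyte scaling and after subtraction, in this order, they turned for Cyp7a1 (1.72, 1.65), Cyp8b1 (1.11, 1.15), Akr1d1 (0.76, 0.56), Fgfr4 (1.39, 1.01), Slc6a6 (0.51, 0.10), Abcc2 (0.19, 0.033), Cyp2c70 (0.76, 0.84), Slc10a1 (1.13, 1.29), Slco1b2 (1.38, 1.52), Slco1a4 (1.56, 1.39) and Ppargc1a (1.53, 1.18). Nr5a2 (1.06, 0.24) and Slco1a1 (0.12, 0.12) turned as well. Without the filter Pltp (-0.033) and Klb (-0.056) turned, and with 1 library left out Pltp ran from -0.62 to 0.51 and Klb from -0.19 to 0.35. Cyp7b1 after subtraction turned at 20 times the background (0.092) and with the minimum on the ratio of mean counts (0.027). With 1 library left out, Cyp7a1 to Cyp27a1 ran from 2.42 to 2.85, Cyp7a1 to Cyp7b1 from 1.53 to 2.06, Cyp8b1 to Cyp7a1 from -0.71 to -0.47, Baat to Slc27a5 from -1.27 to 0.22 and Nr0b2 to Nr1h4 from -0.30 to 0.27.

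Deviations from the group mean in same-numbered libraries had correlations of 0.0082, 0.023 and -0.0064 on the deposited counts. After subtraction these were 0.109, 0.101 and -0.011. Not every library was most like its own number. So few libraries cannot settle whether the numbers pair them by mouse. With the replicate as a block 12059 genes passed, 6 of the bile acid genes fell (not Cyp8b1 and Fgfr4) and Pltp turned (-0.059). After subtraction 1 rose with the block (Cyp7a1, while Cyp8b1 lost its call) and 1 fell (Baat, at -1.35, while Cyp27a1 and Nr1h4 lost theirs). Hsd3b7, at 0 counts in the miR-206 libraries and so below the receptor background for its length, cannot be read there. Low counts over background limit Fgfr4, Klb and Gpbar1.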
